A study of Rattus norvegicus with 743 samples.

Results

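The genes described here encode the nuclear subunits of respiratory complexes I, II and III, followed across the liver transcriptomes of rats given 95 different treatments. A total of 48 rows of the gene count table were included, of 32893 rows in all. They comprised 35 rows for complex I, 4 for complex II and 9 for complex III. Rows were chosen by symbol, with no use of any treatment: names that begin with Ndufa, Ndufb, Ndufc, Ndufs, Ndufv or Uqcr, and Sdha, Sdhb, Sdhc and Sdhd. Assembly factors whose names begin with Ndufaf were left out, as were rows with a mean under 1 CPM (counts scaled to library size). The symbol rule alone gave 53 rows. Ndufa1, Ndufa4l2, Ndufs6 and a second row each of Ndufa10l1 and Ndufv3 fell under that mean. In the counts that the authors also deposited per RefSeq gene, Ndufa1 had a mean of 24.22 CPM, and Ndufb1, with no row here, had 12.85. Ndufc1 and Ndufa3 had means of 44.61 and 21.61 CPM there, against 11.23 and 9.896 here. The level of these genes thus depends on the gene table used. Uqcrb stood on 2 rows, between which the reads of near-identical copies could be split, so its values are uncertain. The row named Ndufa10l1 had a mean of 115.4 CPM, and no row was named Ndufa10. In the RefSeq counts Ndufa10 had 107.3 CPM and Ndufa10l1 3.269 CPM, so the row named Ndufa10l1 may mostly hold reads of Ndufa10.

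Complex I oxidises NADH, passes the electrons through a flavin and a chain of iron-sulfur clusters to ubiquinone, and pumps protons across the inner mitochondrial membrane. Its nuclear core subunits (among them Ndufs1, Ndufs7, Ndufs8 and Ndufv1) carry the flavin and the clusters, and a shell of accessory subunits surrounds the core. Complex II, succinate dehydrogenase, feeds electrons from the tricarboxylic acid (TCA) cycle to ubiquinone, and complex III passes them from ubiquinol to cytochrome c. Complexes I and III also need subunits encoded by the mitochondrial genome, whereas all subunits of complex II are nuclear. In the liver this chain reoxidises the cofactors used in fatty acid oxidation, and impairment of it is a known form of drug toxicity.

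The series measured messenger RNA in frozen rat liver with stranded poly(A) libraries: 377 libraries from treated and 366 from vehicle-dosed rats, 680 animals in 75 studies. Of these, 414 libraries came from Han Wistar and 329 from Sprague Dawley rats, and 726 were from males. Comparing every dosed group with the controls of its own study, sequencing batch and vehicle gave 97 comparisons of 2 to 6 treated with 3 to 5 vehicle animals. Doses are in mg per kg per day, as the dose unit in the labels was read here.

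The 4 comparisons with most subunit genes lower and the 4 with most higher are described in detail below. This choice by 1 direction leaves ticlopidine and carbamazepine, which had more calls in both directions together than flutamide, and clarithromycin to a later paragraph. All 8 used males dosed for 4 days, with 0.5% methylcellulose in deionized water as the vehicle. Han Wistar rats received Cmpd Z, a compound known here by a code name only, at 400, or the endothelin receptor antagonist sitaxsentan at 600. The sulfonylurea chlorpropamide and the androgen receptor antagonist flutamide were also given to Han Wistar rats, at 600 each. Sprague Dawley rats received the anti-inflammatory drug sudoxicam at 100, the macrolide azithromycin at 600, the fibrate clofibrate at 600 or the antibacterial nitrofurantoin at 500. Each group held 4 rats, except that 3 rats were given sudoxicam and 3 nitrofurantoin. Replicates are animals that the labels number separately, so the spread reported is that between rats.

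Library totals ranged from 312270 to 45495825 counts with a median of 18191849, and animals in the 13 comparisons given with values per rat had 14645911 to 53100712. The RNA integrity number (RIN) ranged from 2.2 to 9.5 with a median of 8.4, and its mean was higher in the treated than in the vehicle group in 71 of 97 comparisons. Albumin (Alb), a defining hepatocyte transcript, had a median of 60020 FPKM (fragments scaled for transcript length and library depth) in vehicle livers. The exocrine pancreas gene Prss1 was listed at 0 in 300 of 322 vehicle values, taken as 1 per animal and batch. Skeletal muscle genes were not absent from every vehicle liver: Acta1 reached 626 FPKM, with 268 of 322 at 0. In whole liver, fewer cells of a type and less RNA per cell cannot be told apart. Vehicle libraries of 6 pairs of study labels differed by no more than repeat libraries of 1 animal did, so those studies appear to share vehicle rats. Among the groups below this touched sudoxicam (with caffeine), chlorpropamide (with furosemide), flutamide (with ticlopidine), tetracycline (with amiodarone), tolcapone (with cefprozil) and metformin (with esomeprazole).

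The promoters of 4 genes are printed because their genes were among those called most often in these livers and because each held a searched motif wholly before the start. RefSeq promoter windows (GRCr8, 250 bases before to 50 after the start) matched 41 of the 47 symbols. Those without an entry included Ndufa10l1, Ndufa8, Ndufb9, Uqcr11 and Uqcrb. The stretches run 5′ to 3′ on the strand of the gene, and capitals mark the core shared by ETS factors such as GABPA (CCGGAAG, or CTTCCGG on the other strand).
Ndufs1, chr9:72073758-72073844, minus strand: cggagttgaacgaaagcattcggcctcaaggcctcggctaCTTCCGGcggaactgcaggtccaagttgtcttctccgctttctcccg
Uqcrc2, chr1:184599083-184599239, plus strand: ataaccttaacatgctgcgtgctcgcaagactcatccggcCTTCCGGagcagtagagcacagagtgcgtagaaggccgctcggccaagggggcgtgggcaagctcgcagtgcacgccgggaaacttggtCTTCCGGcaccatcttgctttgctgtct
Uqcrh, chr5:134790919-134791005, minus strand: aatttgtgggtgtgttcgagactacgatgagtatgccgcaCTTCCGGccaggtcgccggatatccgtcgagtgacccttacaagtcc
Ndufa6, chr7:115750461-115750547, minus strand: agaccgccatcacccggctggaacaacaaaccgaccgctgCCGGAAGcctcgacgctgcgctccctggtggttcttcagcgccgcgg
Uqcrc2 carried the motif at 2 places in its stretch and the other three at 1 each.

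The ETS core was found on either strand in 11 of the 41 subunit promoters (26.8%), against 8.75% of all 33469 promoter windows of that length. The YY1 core (AAGATGGC) stood in 9 (22.0% against 3.17% of all windows), and Ndufa6 was among the genes with both cores. The core motif of the estrogen-related receptors (AAGGTCA) stood in 5 (12.2% against 4.61%), and the NRF1 core (CGCATGCG) in 2, Ndufa11 and Uqcrc1 (4.88% against 1.66%). At least 1 of the 4 motifs was present in 22 subunit promoters (53.7%) and in 16.8% of all windows. No 2 of these motifs share a run of more than 3 letters, and a window with several was counted once for each. A match is a description of the letters only.

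The subunit genes were among the well expressed genes of the vehicle liver. On the FPKM scale, which corrects for transcript length, their median level was 65.7 over 322 vehicle values, against 7.17 for the 10480 genes with a median of at least 1 FPKM, and all 48 lay above that gene median. A rat sequenced in more than 1 batch, or shared between study labels, counts more than once among these values. Complex II was the most even of the complexes: its 4 genes had median levels of 110.0 (Sdhc), 110.5 (Sdhd), 112 (Sdha) and 123 FPKM (Sdhb), which do not differ beyond their spread between animals. Complex III medians ran from 32.5 FPKM on the first Uqcrb row to 131 for Uqcrfs1, the Rieske iron-sulfur protein. Complex I was the most spread, from 14.3 FPKM for Ndufab1, the mitochondrial acyl carrier protein, to 191 for Ndufa4, whose protein has since been assigned to cytochrome c oxidase.

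Within complex I the highest levels belonged to accessory genes. Ndufa4 ranged from 109 to 324 FPKM over vehicle animals, Ndufa6 followed with a median of 163 (101 to 283) and Ndufb9 with 136 (65.1 to 232). These ranges overlapped. The lowest medians after Ndufab1 were those of Ndufs4, at 20.0 FPKM, and Ndufc1, at 28.6. The accessory subunit Ndufa3 varied most between animals, with a ratio of the 90th to the 10th percentile of 2.14. The median of this ratio was 1.56 over the 48 genes and 1.63 over 945 genes of a like level, subunit genes among them. Medians were higher in Han Wistar than in Sprague Dawley rats for 10 of 48 genes, among them Ndufs1 (45.4 against 40.5 FPKM) and Sdha (115 against 109). Strain, study and batch cannot be told apart here.

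**Figure D1:**
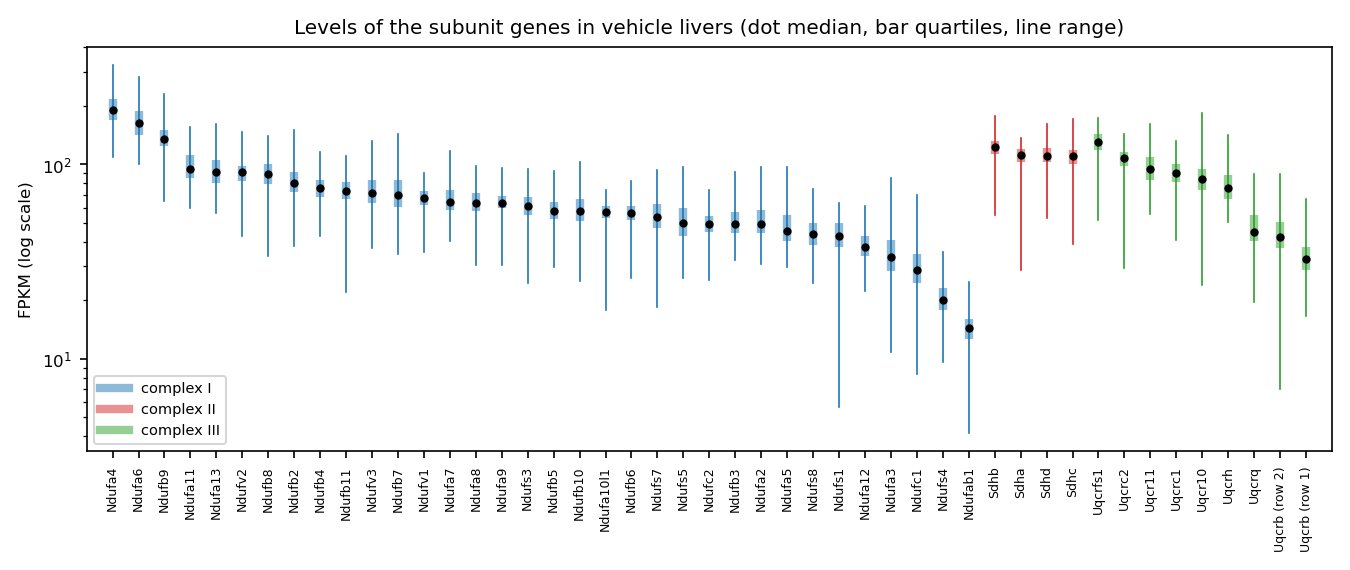
FPKM (log axis) of 47 of the 48 subunit gene rows in 322 vehicle animals, grouped by complex, with the median as a dot, the quartiles as a bar and the range as a line. The 4 complex II genes have medians of 110.0 to 123 FPKM, while complex I runs from 14.3 (Ndufab1) to 191 (Ndufa4).

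These transcripts were also short. The length implied by the ratio of counts to FPKM had a median of 767 bases over the subunit genes and 2139 bases over all genes at that level, and 45 of the 48 were shorter than the gene median. The 3 that were not were Ndufab1 (2562 bases), Ndufs1 (2474 bases) and Sdha (2277 bases), which encode the acyl carrier protein, the largest core subunit of complex I and the flavoprotein of complex II.

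Over all 97 comparisons the subunit genes were called about as often as other genes. Calls were made with edgeR's quasi-likelihood test at a Benjamini-Hochberg adjusted p under 0.05 over all genes tested. Of 4655 tests of a subunit gene, 209 were higher (4.49%) and 203 lower (4.36%) than vehicle, where 4.97% and 4.55% of all gene tests were called. These shares are near the background. The calls were concentrated: the 4 comparisons with most calls in each direction held 114 of the 209 higher and 93 of the 203 lower calls. In 54 comparisons no subunit gene was called, in 16 they were called higher only, in 18 lower only and in 9 in both directions. The median size of a call was 0.45 on the log2 scale, and 15 calls passed 1.

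Core subunits of complex I were called higher in 41 of 679 tests (6.04%) and lower in 25 (3.68%). Accessory subunits showed the other order, with 104 higher (3.83%) and 111 lower (4.09%) of 2716. Complex II had 20 higher and 23 lower calls in 388 tests, and complex III 44 in each direction in 872. The 13 subunits encoded by the mitochondrial genome were called higher in 22 (1.74%) and lower in 60 (4.76%) of 1261 tests. The difference between these sets was not tested.

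**Figure D2:**
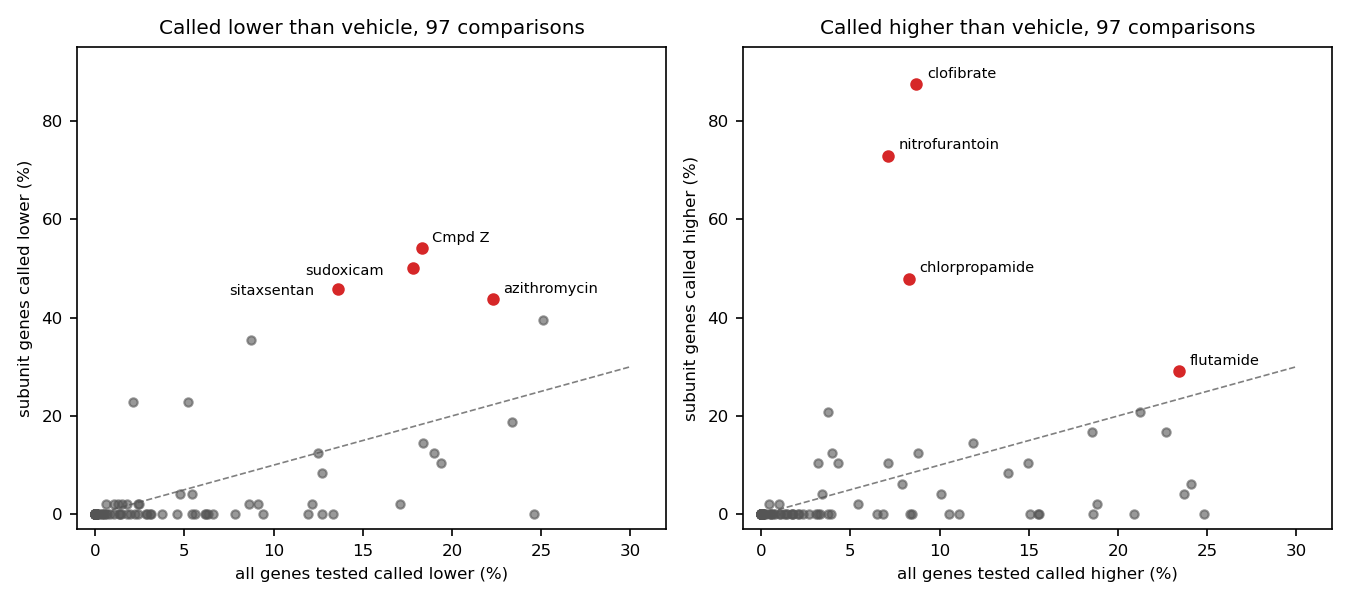
Share of subunit genes called (vertical axis, %) against the share of all genes called (horizontal axis, %) in each of 97 comparisons, lower on the left and higher on the right; the dashed line marks equal shares and red points the 8 comparisons described in detail. Clofibrate and nitrofurantoin stand highest in the right panel, at 42 and 35 of 48 genes, while azithromycin lies closer to the line, at 21 of 48.

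In these 8 comparisons the treated rats lay to 1 side of their controls in a summed measure of the subunit genes. The measure used is the median, over the 48 genes, of each rat's log2 ratio of CPM to the vehicle mean. After Cmpd Z it was -0.45, -0.24, -0.43 and -0.28 in the 4 treated rats, and -0.17 to 0.21 in the vehicle rats. After sudoxicam it was -0.87, -0.29 and -0.51 in the 3 treated rats, and -0.033 to 0.053 in the vehicle rats. In both, every treated rat lay below every vehicle rat, but sudoxicam rat 1 lay far below rat 2.

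Sitaxsentan gave -0.22, -0.34, -0.34 and -0.44 against -0.14 to 0.13 in vehicle rats, and azithromycin -0.39, -0.20, -0.22 and -0.15 against -0.053 to 0.073. Clofibrate gave 0.70, 0.38, 0.60 and 0.62 against -0.045 to 0.12, and nitrofurantoin 1.14, 0.65 and 0.50 against -0.16 to 0.082. The groups were apart in these as well. Chlorpropamide gave 0.24, 0.27, 0.35 and 0.38 against -0.083 to 0.10, and flutamide 0.096, 0.17, 0.14 and 0.11 against -0.051 to 0.069. The flutamide rats lay only just above their controls. In none of the 8 was a subunit gene called in the other direction by edgeR or DESeq2, and at an unadjusted p under 0.05 edgeR gave 1, higher after azithromycin. The comparisons were picked for their number of calls in 1 direction, so these separations are a description.

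**Figure D3:**
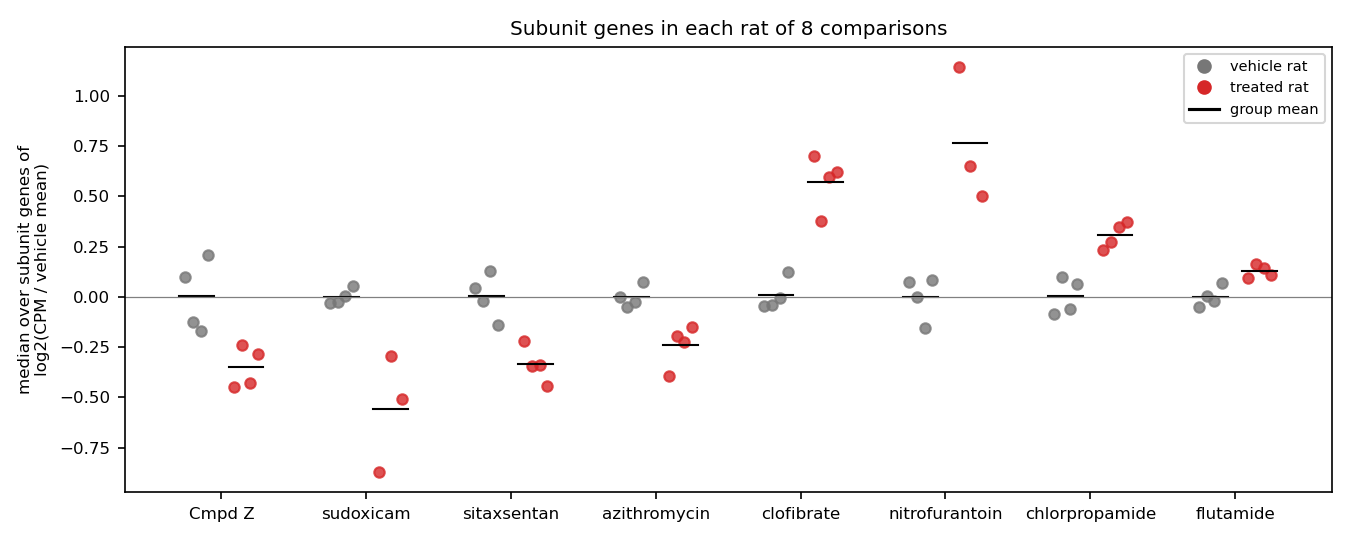
Median over the 48 subunit genes of log2(CPM / vehicle mean) in each rat (points; grey vehicle, red treated; short lines are group means) for the 4 comparisons with most subunit genes lower and the 4 with most higher. The treated rats lie below all vehicle rats in the first 4 and above them in the last 4, with nitrofurantoin rat 1 highest at 1.14.

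After Cmpd Z, 26 of 48 subunit genes were lower than in vehicle livers, where 18.3% of all genes were lower, and none was higher (20.9% of all genes were). The fall covered 6 of 7 core and 11 of 28 accessory subunits of complex I, all 4 subunits of complex II and 5 of 9 of complex III. The median log2 fold change of the subunit genes was -0.37, with a range of -0.74 to 0.12. Ndufb5, an accessory subunit of the membrane arm, fell most: CPM was 99.7, 88.9, 70.6 and 101 in vehicle rats and 50.6, 60.2, 50.3 and 55.1 in treated rats. All treated rats lay below all vehicle rats, with a log2 fold change and SE of -0.74 ± 0.13 (adjusted p = 0.00153).

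Uqcrh, the hinge protein of complex III, had 60.0, 53.5, 50.5 and 71.3 CPM in vehicle rats and 32.8, 44.3, 37.1 and 35.3 after Cmpd Z (log2 fold change -0.65 ± 0.14, adjusted p = 0.00387). Ndufs7, the core subunit that carries the last iron-sulfur cluster before ubiquinone, had 85.3, 72.0, 70.9 and 89.0 CPM in vehicle rats and 51.0, 58.2, 50.1 and 43.7 after dosing (-0.64 ± 0.12, adjusted p = 0.0023). Both groups were apart for each gene. Ndufs1 fell from 95.2 ± 13.2 to 63.3 ± 6.62 CPM (SD, n = 4 each, edgeR adjusted p = 0.00431), Sdhb, the iron-sulfur subunit of complex II, from 152 ± 19.1 to 110 ± 7.61 and Sdha from 247 ± 17.8 to 189 ± 21.6. Uqcrc1, a core protein of complex III, and Uqcrfs1 did not pass the test, at log2 fold changes of -0.17 and -0.25. The core subunit Ndufs8 (0.12) and Uqcrq (0.11) were the highest of the 48 and did not pass either.

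Other parts of the chain stood beside this. Of the mitochondrially encoded subunits, 9 of 13 were lower after Cmpd Z (median log2 fold change -0.64). Of the 10 nuclear complex IV genes tested, 1 was lower (median -0.29), and of 16 ATP synthase genes 4 were lower and 1 higher (-0.30). In contrast, 46 of 66 cytosolic ribosomal protein genes were higher (0.46), as were 9 of 15 mitochondrial stress genes (0.78). Hepatocyte markers were lower for 5 of 7 (median -0.99), and their summed level fell from 188200 to 208600 CPM in vehicle rats to 93520 to 109200 in treated rats. Neutrophil sums were 0.0396 to 1.15 CPM in vehicle and 2.01 to 6.45 in treated rats, and cholangiocyte sums 9.50 to 13.7 and 25.3 to 41.0. The part of these cells in the result was not tested. Mean RIN was 7.6 in vehicle and 7.75 in treated rats. Leaving out vehicle rat 1 gave 14 subunit genes lower and leaving out treated rat 1 gave 15. Without vehicle rat 4 or treated rat 3 the count was 17.

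After sudoxicam, an oxicam anti-inflammatory drug, 24 of 48 subunit genes were lower (17.8% of all genes were) and none was higher (18.6%). These were 2 of 7 core and 17 of 28 accessory genes of complex I, 2 of 4 of complex II and 3 of 9 of complex III. The median log2 fold change was -0.55 and 47 of 48 values lay below 0. Ndufa6, an accessory subunit that holds the acyl carrier protein Ndufab1 on complex I, had 93.2, 96.1, 104 and 98.5 CPM in vehicle rats and 31.2, 48.7 and 42.5 in treated rats. Its log2 fold change of -1.27 ± 0.17 (adjusted p = 0.00105) was the lowest of the 4655 tests of subunit genes, and its 3 treated values lay far under the vehicle values.

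Ndufb10 had 40.7, 41.5, 48.8 and 46.2 CPM in vehicle rats and 18.6, 23.7 and 19.6 after sudoxicam (-1.10 ± 0.14, adjusted p = 0.000763). Ndufv3, a small subunit of the NADH-binding module, had 68.3, 59.2, 59.6 and 69.2 CPM in vehicle rats and 33.0, 33.2 and 30.7 after sudoxicam (-0.99 ± 0.13, adjusted p = 0.000768). The treated rats were close to each other for these 2 genes. Sdha fell from 212 ± 9.51 (n = 4) to 134 ± 16.8 CPM (n = 3, edgeR adjusted p = 0.0104). For Sdhb, Uqcrc1, Ndufs1 and Ndufv1 the log2 fold changes were -0.67, -0.49, -0.42 and -0.39 with adjusted p = 0.0599, 0.0658, 0.0551 and 0.0994. Uqcrfs1 stood at 0.031, with 106, 148 and 97.8 CPM in treated rats around the vehicle mean of 115.

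In the same livers all 4 neutrophil markers were higher (median log2 fold change 5.11), and their summed level was 0.818 to 2.05 CPM in vehicle and 33.3 to 54.3 CPM in treated rats. Macrophage markers were higher for 4 of 6, with sums of 322 to 418 CPM in vehicle and 620 to 713 in treated rats. Hepatocyte markers were higher for 3 of 7 and lower for 1, while their sum was lower (106200 to 124200 against 146600 to 177100 CPM). Lymphocyte sums (3.06 to 5.57 CPM in vehicle, 1.26 to 2.80 in treated rats) and cholangiocyte sums (11.7 to 18.6 and 5.53 to 11.7) were lower without overlap, and all 3 erythroid markers were higher. Of mitochondrial ribosomal protein genes 33 of 72 were lower and 1 higher, and of the mitochondrially encoded subunits 1 of 13 was lower (median -0.39). RIN was 6.6 to 8.0 in vehicle and 7.9 to 8.4 in treated rats, and with RIN as a covariate 9 subunit genes were lower (median -0.39). The part of these cells and of RNA quality in the result was not tested.

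After sitaxsentan, 22 of 48 subunit genes were lower (13.6% of all genes were) and none higher (15.5%). Accessory subunits of complex I made up 15 of these, with 2 of 7 core genes, 1 of 4 of complex II and 4 of 9 of complex III. Ndufa8, an accessory subunit of the intermembrane space side, had 82.6, 75.1, 82.0 and 61.0 CPM in vehicle rats and 44.0, 46.9, 35.4 and 40.3 in treated rats (log2 fold change -0.85 ± 0.13, adjusted p = 0.00308). Uqcrh had 58.1, 58.1, 65.9 and 56.2 CPM in vehicle rats and 31.0, 36.7, 38.7 and 31.4 in treated rats (-0.79 ± 0.11, adjusted p = 0.00177). The groups were apart for both genes.

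Ndufb7 had 54.7, 50.4, 58.7 and 47.6 CPM in vehicle rats and 34.0, 28.9, 31.5 and 28.1 after sitaxsentan (-0.79 ± 0.10, adjusted p = 0.00162). Ndufs1, Ndufv1 and Uqcrc1 showed no such fall. Ndufs1 was at 101 ± 5.17 CPM in vehicle and 98.2 ± 6.54 in treated rats (SD, n = 4 each), Ndufv1 at 122 ± 10.6 and 116 ± 8.79, and Uqcrc1 at 167 ± 11.5 and 171 ± 6.56, and none of them passed the test. Sdha stood at 252 ± 16.0 and 282 ± 4.99 CPM, with all treated above all vehicle rats, at an adjusted p of 0.269 by edgeR. Sdhb (-0.25) and Uqcrfs1 (0.051) did not pass.

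RIN was 6.9 to 7.6 in the sitaxsentan vehicle rats and 8.2 to 8.8 in the treated rats, without overlap. With RIN as a covariate edgeR called no gene of any kind, and the median of the subunit genes was -0.052 in place of -0.33, so treatment and RNA quality cannot be told apart here. The vehicle rats, which also served as controls for methyldopa, had a mean of 44889119 counts against 18945493 in treated rats. Neutrophil markers were higher for 3 of 3 tested (median 2.38, sums of 0.189 to 1.13 against 3.68 to 8.48 CPM). Macrophage markers were lower for 3 of 6 (sums of 289 to 410.3 against 123 to 235 CPM), and endothelial sums were 132 to 169 CPM in vehicle and 181 to 195 in treated rats, with 2 of 4 markers higher and 1 lower. The part of these cells was not tested. By edgeR no mitochondrially encoded subunit was called (median -0.058, also 0 at an unadjusted p under 0.05), and 1 of 12 TCA cycle genes was higher.

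After azithromycin, 21 of 48 subunit genes were lower (22.3% of all genes were) and none was higher (24.8%). Complex I contributed 4 of 7 core and 9 of 28 accessory genes, complex II 3 of 4 and complex III 5 of 9. Ndufa6 was 2.00-fold lower, and its values were close within each group: 129, 113, 122 and 134 CPM in vehicle rats and 58.9, 62.4, 62.6 and 65.5 in treated rats, a log2 fold change of -1.0 ± 0.079 (adjusted p = 1.27e-05). Sdha, the flavoprotein of complex II, had 298, 305, 351 and 341 CPM in vehicle rats and 182, 195, 217 and 220 after azithromycin (-0.67 ± 0.094, adjusted p = 0.00034). Ndufs7 had 79.1, 65.3, 73.1 and 74.0 CPM in vehicle rats and 46.9, 56.5, 45.7 and 46.8 in treated rats (-0.57 ± 0.094, adjusted p = 0.000821). All treated rats lay below all vehicle rats for each of the 3 genes.

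Catalytic subunits of every complex were among the genes that fell after azithromycin. Uqcrfs1 went from 172 ± 7.51 to 118 ± 9.84 CPM, Sdhb from 148 ± 15.9 to 107 ± 7.37 and Ndufv1 from 142 ± 5.87 to 105 ± 8.00 (SD, n = 4 each), with edgeR adjusted p = 0.000519, 0.00283 and 0.00169. Uqcrc1, a core protein of complex III that is not catalytic, changed less than these, from 182 ± 4.44 to 156 ± 9.87 CPM (edgeR adjusted p = 0.0311). Ndufs1 was at -0.12 on the log2 scale and did not pass. The mitochondrially encoded subunits were lower for 10 of 13 (median -0.47), and nuclear complex IV genes for 7 of 10 (-0.25). Mitochondrial ribosomal protein genes moved the other way, 29 of 73 higher and 5 lower, as did 37 of 65 cytosolic ones. Hepatocyte markers were lower for 5 of 7 (median -0.88, sums of 165400 to 190400 against 109900 to 117600 CPM) and endothelial markers for 3 of 4 (-1.71, sums of 137 to 156 against 32.4 to 89.8 CPM). Sums were higher without overlap for macrophage (286 to 342 against 357 to 626 CPM), stellate and fibroblast (255 to 401 against 440 to 544), cholangiocyte (10.8 to 23.7 against 47.9 to 62.9) and neutrophil markers (0.0683 to 0.477 against 0.720 to 2.45). Gene by gene, macrophage markers were higher for 2 of 6 and lower for 1. Stellate and fibroblast markers were higher for 0 of 5 and lower for 1. Cholangiocyte markers were higher for 1 of 3 tested, and 0 of the 4 neutrophil markers passed the count filter. The part of these cells was not tested. RIN was 8.1 to 8.7 in vehicle and 8.4 to 8.7 in treated rats.

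After clofibrate, a fibrate that activates the nuclear receptor PPAR-alpha, 42 of 48 subunit genes were higher (8.71% of all genes were) and none lower (6.31%). All 7 core genes of complex I, all 4 of complex II and all 9 of complex III were higher, with 22 of 28 accessory genes. The median log2 fold change was 0.58, and the 6 genes that did not pass were Ndufa2, Ndufa6, Ndufa11, Ndufa13, Ndufb4 and Ndufb8. Ndufa6 was the only subunit gene below 0 (-0.043), with 80.9, 85.3, 84.5 and 83.6 CPM in vehicle rats and 85.5, 79.0, 75.1 and 84.8 in treated rats.

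Ndufa3, a small membrane subunit of complex I, stood apart from the other genes after clofibrate: it had 10.3, 9.71, 8.06 and 8.29 CPM in vehicle rats and 38.6, 28.2, 65.5 and 52.9 in treated rats. This is a 5.08-fold rise (log2 fold change 2.35 ± 0.25, adjusted p = 0.00214), the largest of any subunit gene in any comparison. No other subunit gene passed a log2 fold change of 1 after clofibrate. Ndufab1 had 28.3, 32.8, 27.9 and 33.2 CPM in vehicle rats and 57.7, 46.8, 63.1 and 57.6 after clofibrate (0.88 ± 0.11, adjusted p = 0.00284). Sdhb had 104, 106, 113 and 126 CPM in vehicle rats and 219, 180.0, 206 and 213 in treated rats (0.87 ± 0.10, adjusted p = 0.00235). The groups were apart for all 3 genes.

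The other genes followed in every comparison rose after clofibrate as well. Uqcrc1 went from 144 ± 13.5 to 252 ± 19.3 CPM, Ndufs1 from 99.7 ± 8.08 to 168 ± 19.1 and Uqcrfs1 from 142 ± 12.1 to 227 ± 23.9 (SD, n = 4 each), with edgeR adjusted p = 0.0029, 0.00418 and 0.00614. Ndufv1 rose by 0.61 on the log2 scale and Sdha by 0.36. Beside them, 9 of 10 nuclear complex IV genes, 13 of 16 ATP synthase genes, 9 of 12 TCA cycle genes and 41 of 72 mitochondrial ribosomal protein genes were higher and none of these was lower. Of the mitochondrially encoded subunits 4 of 13 were higher (median 0.40). None of the 12 regulators of mitochondrial biogenesis, among them Ppargc1a, Nrf1, Gabpa and Esrra, was called by edgeR (median -0.044, 0 higher and 1 lower at an unadjusted p under 0.05). Hepatocyte markers were lower for 5 of 7 (median -0.94, sums of 167700 to 186200 against 101900 to 132600 CPM). Macrophage markers were lower for 4 of 6 (302 to 451 against 240 to 290.3 CPM), stellate and fibroblast markers for 2 of 5 (341 to 514 against 266 to 299.7) and erythroid markers for 2 of 3 (271 to 415 against 65.1 to 157). Cholangiocyte sums were 11.9 to 15.7 CPM in vehicle and 20.3 to 34.4 in treated rats. What these cells contributed was not tested. RIN was 8.2 to 8.6 in vehicle and 8.4 to 8.9 in treated rats.

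After nitrofurantoin, a nitro compound used against urinary infection, 35 of 48 subunit genes were higher (7.12% of all genes were) and none lower (5.45%). These were 6 of 7 core and 17 of 28 accessory genes of complex I, all 4 of complex II and 8 of 9 of complex III, and all 48 log2 fold changes lay above 0, with a median of 0.80. Ndufa5, an accessory subunit of the matrix arm, had 22.6, 22.4, 18.2 and 27.2 CPM in vehicle rats and 78.6, 41.6 and 44.9 in treated rats (log2 fold change 1.28 ± 0.24, adjusted p = 0.0164). The second Uqcrb row had 16.5, 17.9, 15.0 and 18.0 CPM in vehicle rats and 56.7, 31.2 and 26.6 in treated rats (1.18 ± 0.25, adjusted p = 0.0237). Sdhd, a membrane anchor of complex II, had 126, 138, 116 and 136 CPM in vehicle rats and 357, 267 and 214 after nitrofurantoin (1.11 ± 0.19, adjusted p = 0.0116). Treated rat 1 was the highest for all 3 genes, and all treated rats lay above all vehicle rats.

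Ndufv1, the NADH-binding flavoprotein, rose from 110 ± 3.5 (n = 4) to 231 ± 72.1 CPM (n = 3) after nitrofurantoin, Uqcrc1 from 162 ± 10.8 to 331 ± 109 and Ndufs1 from 103 ± 18.7 to 203 ± 34.0 CPM (edgeR adjusted p = 0.0164, 0.0221 and 0.0166). Uqcrfs1 rose by 0.97 on the log2 scale, Sdhb by 0.81 and Sdha by 0.50. As after clofibrate, Ndufa6 was the lowest of the 48, at 0.057. TCA cycle genes were higher for 9 of 12 (median 1.00), ATP synthase genes for 12 of 16 (0.86) and mitochondrially encoded subunits for 6 of 13 (0.64), while 0 of 65 cytosolic ribosomal protein genes were called by edgeR (1 higher and 2 lower unadjusted). Of the 12 regulators of mitochondrial biogenesis 4 were higher and 0 lower (median 0.45). Hepatocyte markers were higher for 2 of 7 and lower for 0 (median 0.46), while their sums overlapped (149200 to 177200 against 138800 to 161600 CPM). Lymphocyte markers were lower for 2 of 4 (sums of 2.28 to 6.79 against 0.428 to 2.06 CPM). Stellate cell and fibroblast markers were lower for 3 of 5 (533 to 644 against 168 to 485 CPM). Erythroid sums were 110 to 295 against 26.5 to 91.0 CPM. The part of these cells was not tested. Treated rat 3 carried skeletal muscle transcripts, with a sum of Acta1, Ckm and Mylpf of 2186 CPM, where the other rats had 0 to 0.13. Without it 37 subunit genes were higher and their median log2 fold change was 0.92. The count rested on few animals: it was 8 without vehicle rat 1 or vehicle rat 2, 11 without vehicle rat 3, 19 without vehicle rat 4 and 23 without treated rat 1. It was 0 with RIN as a covariate, at 34 genes of any kind higher and 20 lower, while the median of the subunit genes was 0.76. RIN was 7.8 to 8.5 in vehicle and 8.4 to 8.6 in treated rats, and clopidogrel shared the vehicle rats.

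After chlorpropamide, 23 of 48 subunit genes were higher (8.3% of all genes were) and none lower (7.87%), with changes smaller than after clofibrate. The median log2 fold change was 0.30, all 48 values lay above 0, and 16 of 28 accessory and 3 of 7 core genes of complex I, 1 of 4 of complex II and 3 of 9 of complex III passed. Ndufa5 had 29.2, 32.9, 27.1 and 29.6 CPM in vehicle rats and 43.8, 41.2, 51.6 and 46.7 in treated rats (0.63 ± 0.094, adjusted p = 0.00318). Ndufs5 had 22.6, 22.7, 23.8 and 29.3 CPM in vehicle rats and 33.6, 30.8, 47.9 and 38.6 after chlorpropamide (0.62 ± 0.14, adjusted p = 0.0153). The second Uqcrb row had 17.9, 22.9, 18.7 and 22.1 CPM in vehicle rats and 23.1, 32.3, 29.9 and 28.6 in treated rats (0.48 ± 0.12, adjusted p = 0.0231). The groups were apart for all 3 genes, narrowly so for Uqcrb.

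Ndufs1 rose from 109 ± 3.26 to 147 ± 12.1 CPM after chlorpropamide (SD, n = 4 each, edgeR adjusted p = 0.00822). The other genes followed in every comparison did not pass: Sdhb stood at 0.27, Uqcrfs1 at 0.26, Ndufv1 at 0.18, Uqcrc1 at 0.17 and Sdha at 0.047 on the log2 scale. Of TCA cycle genes 7 of 12, of ATP synthase genes 9 of 16 and of mitochondrial ribosomal protein genes 28 of 73 were higher. Macrophage markers were lower for 5 of 6 (median -0.77, sums of 274 to 485 CPM in vehicle and 186 to 261 in treated rats), stellate and fibroblast markers for 3 of 5 (371 to 482 and 290.0 to 360.1 CPM) and erythroid markers for 2 of 3 (200.3 to 411 and 32.9 to 129 CPM). Hepatocyte sums were 169100 to 192900 CPM in vehicle and 150000 to 161200 in treated rats, with 1 of 7 markers lower. What these cells contributed was not tested. The vehicle rats, shared with pentoxifylline, had a mean of 33460849 counts against 16406234 in treated rats. The count was 10 without vehicle rat 1, 14 without vehicle rat 3 and 13 without treated rat 2, 3 or 4. It was 14 with RIN as a covariate, at a median of 0.29.

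After flutamide, 14 of 48 subunit genes were higher, a share close to the 23.4% of all genes that were higher, and none was lower (24.6%). These were 5 of 7 core and 6 of 28 accessory genes of complex I, 1 of 4 of complex II and 2 of 9 of complex III, and the difference between these sets was not tested. Uqcrc1 had 165, 168, 169 and 169 CPM in vehicle rats and 259, 296, 222 and 212 in treated rats (log2 fold change 0.56 ± 0.11, adjusted p = 0.00268). Ndufa12, an accessory subunit of the matrix arm, had 21.2, 19.7, 19.6 and 22.3 CPM in vehicle rats and 25.3, 34.9, 26.8 and 25.7 after flutamide (0.44 ± 0.11, adjusted p = 0.00964). Ndufa10l1 had 115, 131, 118 and 125 CPM in vehicle rats and 174, 177, 160 and 151 in treated rats (0.44 ± 0.086, adjusted p = 0.00235). Treated rat 2 was highest for each, and the groups were apart.

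Ndufs1 rose from 143 ± 11.8 to 189 ± 15.3 CPM and Ndufv1 from 122 ± 4.17 to 161 ± 14.7 after flutamide (SD, n = 4 each, edgeR adjusted p = 0.00608 and 0.00392), while Sdha (0.11), Sdhb (0.057) and Uqcrfs1 (0.14) did not pass. In these livers 51 of 65 cytosolic and 46 of 72 mitochondrial ribosomal protein genes were higher, with 9 of 15 mitochondrial stress genes. Macrophage markers were lower for 5 of 6 (sums of 267 to 327 against 153 to 217 CPM), stellate and fibroblast markers for 4 of 5 (426 to 457 against 177 to 316), endothelial markers for 4 of 4 (236 to 282 against 187 to 245) and lymphocyte markers for 2 of 2 tested (2.07 to 3.05 against 0.308 to 1.41). Cholangiocyte sums were 9.98 to 13.3 CPM in vehicle and 14.7 to 26.5 in treated rats. Hepatocyte markers were lower for 5 of 7 and higher for 1, with sums of 178800 to 189200 CPM in vehicle and 110700 to 135800 in treated rats. The part of these cells was not tested. RIN was 8.2 to 8.3 in vehicle and 8.8 to 9.2 in treated rats, without overlap. With RIN as a covariate no subunit gene was called, at 159 genes of any kind higher and 46 lower, and their median was -0.038 in place of 0.14, so treatment and RNA quality cannot be told apart here.

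**Figure D4:**
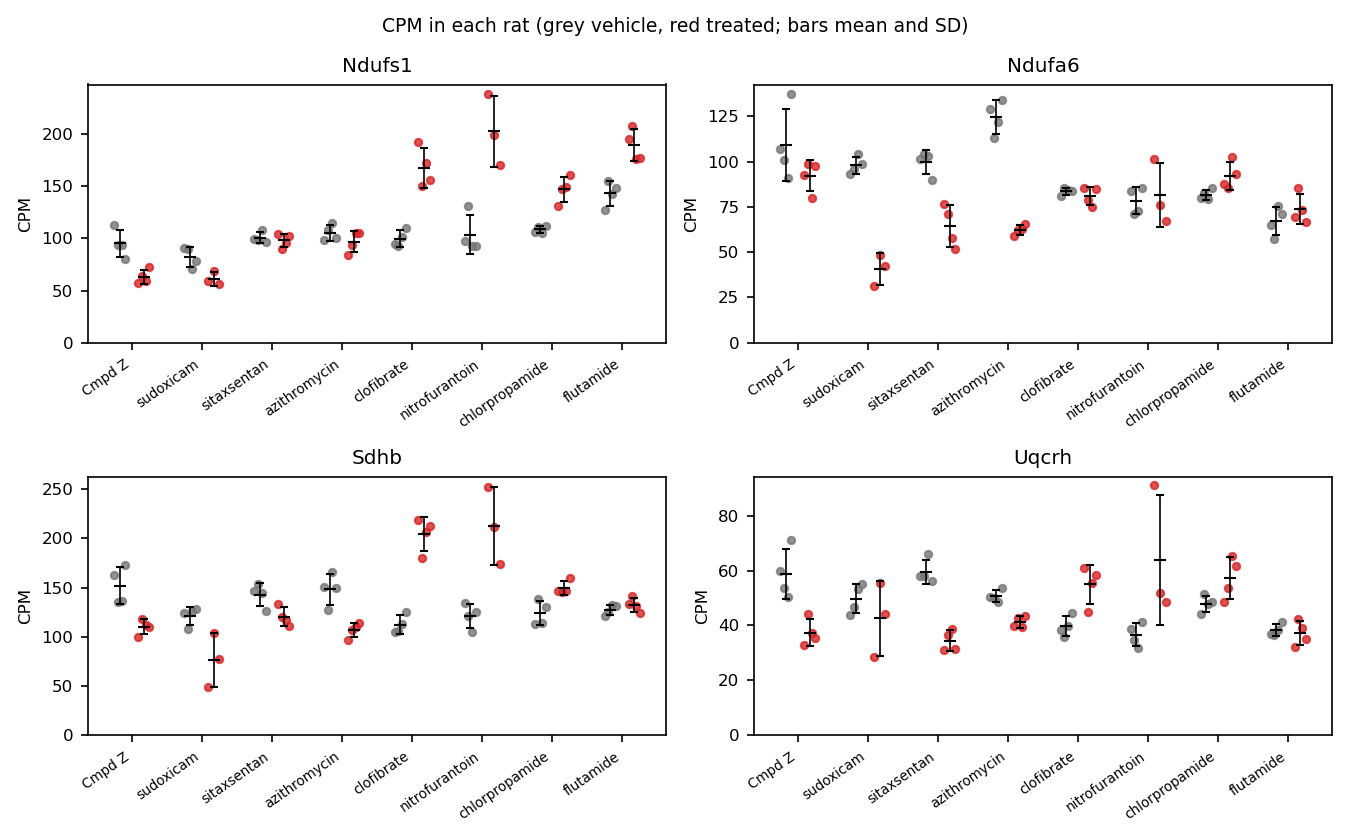
CPM of Ndufs1, Ndufa6, Sdhb and Uqcrh in each rat of the 8 comparisons (grey vehicle, red treated, bars mean and SD; axes start at 0). Ndufa6 after sudoxicam and azithromycin lies far below its vehicle rats, while after clofibrate it stays at 75.1 to 85.5 CPM as Ndufs1 and Sdhb rise.

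A further 5 compounds were examined because they are known for actions on mitochondria. Metformin, a biguanide that inhibits complex I, was given to Sprague Dawley males at 600 for 3 days, with a vehicle group of 4 days, and only Ndufs1 was called, higher (0.433% of all genes were higher and 0.529% lower). Ndufs1 had 73.2, 68.9, 70.8 and 74.6 CPM in vehicle rats and 102, 97.4, 107 and 92.8 after metformin, so that the groups did not overlap (log2 fold change 0.47 ± 0.071, adjusted p = 0.0348). RIN was 6.4 to 7.2 in vehicle and 8.2 to 8.4 in treated rats, and without libraries of RIN under 7, or with RIN as a covariate, no subunit gene was called. Without those libraries 1 gene of any kind was higher and 4 were lower. With the covariate 0 genes of any kind were called. DESeq2 called 5 subunit genes higher.

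Nefazodone, an antidepressant withdrawn in many markets for liver injury, was given to Han Wistar males at 600 in propylene glycol. Of its subunit genes 1 of 48 was lower (9.13% of all genes were) and none higher (11.1%), although 42 of 48 log2 fold changes lay below 0. The gene was the accessory subunit Ndufa7, with 29.6, 30.6, 31.2 and 29.3 CPM in vehicle rats and 23.7, 21.9, 19.0 and 26.4 in treated rats (-0.41 ± 0.10, adjusted p = 0.0197). The groups were apart. Sdha had 247, 307, 292 and 299 CPM in vehicle rats and 246, 240, 193 and 235 in treated rats, at an adjusted p of 0.0549 by edgeR's test over all genes. DESeq2 called 2 subunit genes lower. With RIN as a covariate edgeR called 0 subunit genes, at 13 genes of any kind higher and 3 lower. RIN was 8.4 to 8.6 in vehicle and 8.8 to 9.0 in treated rats, without overlap. Hepatocyte markers were lower for 4 of 7 (sums of 190100 to 216100 against 125200 to 157500 CPM). Lymphocyte sums (1.84 to 2.74 against 1.07 to 1.81 CPM) and cholangiocyte sums (8.21 to 11.8 against 12.2 to 15.9) were apart as well, and the part of these was not tested.

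The catechol-O-methyltransferase inhibitor tolcapone (Sprague Dawley, 600, 3 vehicle rats) and the antibacterials chloramphenicol and tetracycline (Han Wistar, 600), which inhibit protein synthesis on mitochondrial ribosomes, gave no call among the subunit genes by edgeR or DESeq2. At an unadjusted p under 0.05, edgeR's test gave 1 subunit gene higher and 1 lower after tolcapone, 1 higher and 1 lower after chloramphenicol and 0 after tetracycline. Almost nothing else was called by edgeR either, with 0% of all genes in either direction after tolcapone and tetracycline, and 0.00756% higher and 0% lower after chloramphenicol. The medians of the subunit genes were -0.023, -0.12 and 0.054 on the log2 scale. Those of the 13 mitochondrially encoded subunits were 0.11, 0.32 and 0.33, with 0, 5 and 10 higher and 0 lower at an unadjusted p under 0.05 by edgeR. Their summed level was 62140 to 70010 CPM in vehicle and 76430 to 79740 in tetracycline rats, without overlap. For tolcapone and chloramphenicol these sums overlapped. Vehicle rat 3 of tolcapone carried skeletal muscle transcripts (1406 CPM of Acta1, Ckm and Mylpf together), and without it 0 subunit genes were called by edgeR and the median was 0.0099. Vehicle rats of the chloramphenicol study, shared with trovafloxacin, spread widely: their medians over the subunit genes were 0.50, -0.38, -0.058 and -0.058, against -0.12 to 0.021 in treated rats. Ndufs1 was the only gene with groups apart, at 112, 101, 143 and 132 CPM in vehicle and 168, 143, 145 and 153 in chloramphenicol rats (adjusted p = 0.389 by edgeR).

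**Figure D5:**
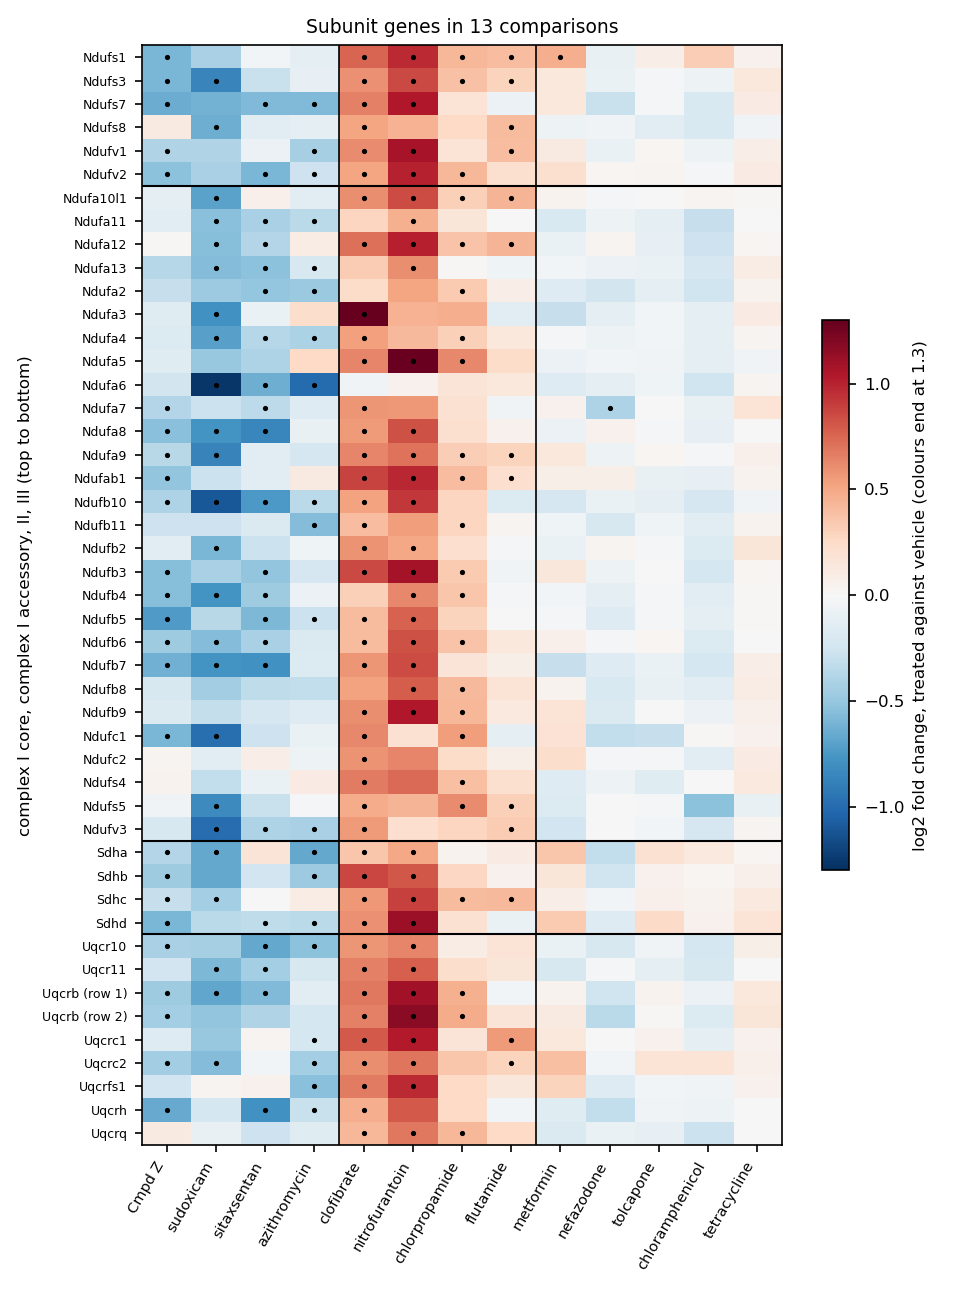
Log2 fold change of 47 of the 48 subunit gene rows (rows, grouped as complex I core, complex I accessory, complex II and complex III) in 13 comparisons (columns), red higher and blue lower than vehicle, with a dot where edgeR's adjusted p was under 0.05. Colours end at 1.3, so Ndufa3 after clofibrate (2.35) is beyond the scale; the Ndufa6 row stays pale under clofibrate and nitrofurantoin.

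Of the other comparisons, 4 had at least 10 subunit genes called in 1 direction and fewer than 3 in the other. Clarithromycin, like azithromycin a macrolide but given to Han Wistar rats, had 17 lower (8.76% of all genes were), led by Sdhd (-0.50 ± 0.10, adjusted p = 0.00802) and including Sdha, Sdhb, Ndufs1, Ndufv1, Uqcrc1, Uqcrc2 and Uqcrfs1. Ndufa6, in contrast, was higher after clarithromycin (0.30). The anxiolytic alpidem had 11 lower (5.21% of all genes), all of them accessory subunits of complex I except Uqcrh and the second Uqcrb row, and led by Uqcrh (-0.69 ± 0.12, adjusted p = 0.00627). Methyldopa, compared with the same vehicle rats as sitaxsentan, had 11 lower (2.11% of all genes), led by Ndufa3 (-0.62 ± 0.15, adjusted p = 0.0473). Co-amoxiclav had 10 higher (3.74% of all genes), led by Ndufa5 (0.49 ± 0.097, adjusted p = 0.0116). Mean RIN was 8.3 in vehicle and 8.08 in treated rats for clarithromycin, 7.43 and 8.15 for alpidem, 7.39 and 8.28 for methyldopa, and 8.73 and 8.33 for co-amoxiclav. With RIN as a covariate edgeR called 12 subunit genes lower after clarithromycin, and none after alpidem, methyldopa or co-amoxiclav (0 each). Of genes of any kind, that fit called 0 in either direction after alpidem and co-amoxiclav. It called 1 higher and 1 lower after methyldopa, and 910 higher and 753 lower after clarithromycin. The medians of the subunit genes were then -0.22 for alpidem (-0.21 without the covariate), -0.12 for methyldopa (-0.30) and 0.23 for co-amoxiclav (0.26). DESeq2 called 15 lower after alpidem, 27 lower after methyldopa and 20 higher after co-amoxiclav. The edgeR counts of these 3 also moved when single rats were left out: to 5 or 6 for alpidem (10 without vehicle rat 2), to between 0 and 3 for methyldopa (15 without vehicle rat 4) and to between 2 and 19 for co-amoxiclav (19 without vehicle rat 2).

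In 3 comparisons at least 3 subunit genes were called in each direction. Carbamazepine had 10 higher (21.3% of all genes) and 5 lower (19.4%): Ndufs1, Ndufs8, Ndufv1, Uqcrc1, Sdhc and others rose, led by Uqcr10 at 1.07 ± 0.20 (adjusted p = 0.00245), and Ndufc1, Ndufa6, Ndufa2, Uqcrh and the second Uqcrb row fell. Ticlopidine had 3 higher (24.1%), namely Ndufs1, Ndufa10l1 and Uqcrc2, and 19 lower (25.1%), with Ndufs7 the lowest at -0.62. Ritonavir had 8 higher (22.7%) and 6 lower (19%), with Ndufa4 and Ndufa12 among the higher and Sdhb, Sdhd and Uqcrh among the lower. All these shares of subunit genes except that of ticlopidine's lower genes were near or under those of all genes. Uqcrh was lower in all 3. The counts with RIN as a covariate were, by edgeR, 0 in either direction after carbamazepine, 1 higher and 18 lower after ticlopidine, and 7 higher and 6 lower after ritonavir. For carbamazepine that fit called 224 genes of any kind higher and 113 lower.

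The counts per gene that follow stand beside 4.97% of all gene tests called higher and 4.55% called lower. Over the 97 comparisons Ndufs1 was called most often, 18 times, 15 of them higher: after nitrofurantoin (0.97), clofibrate (0.75), ticrynafen (0.64), esomeprazole (0.60), NB-360 (0.53) and metformin (0.47), among others. It was lower after Cmpd Z, hydroxyzine and clarithromycin. Metformin and esomeprazole, and also flutamide and ticlopidine, appear to share vehicle rats, so the higher calls are not all independent. In 13 of the 15 higher calls of Ndufs1 the treated group had the higher mean RIN, as it had in 71 of all 97 comparisons. The row named Ndufa10l1, which may mostly hold reads of Ndufa10, was higher in 11 comparisons. Uqcrc2, a core protein of complex III, and Sdhc, a membrane anchor of complex II, were higher in 9 each.

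Uqcrh was called lower most often, in 12 comparisons, with sitaxsentan (-0.79), alpidem (-0.69), felbamate (-0.66) and Cmpd Z (-0.65) at the low end, and higher in 2, clofibrate and co-amoxiclav. Of the lower calls of Uqcrh, those after sitaxsentan and methyldopa rest on the same vehicle rats. Ndufa6 was lower in 11 comparisons and higher in 2. Its lower calls took in sudoxicam (-1.27), azithromycin (-1.0), naproxen (-0.93), sitaxsentan (-0.63), lumiracoxib (-0.62), fluoxetine (-0.58), ticrynafen (-0.50) and diclofenac (-0.48). Ndufc1 was lower in 11 comparisons and higher in 2. The treated group had the higher mean RIN in 11 of 12, 11 of 11 and 10 of 11 of these lower calls. Over all 97 comparisons it had the higher mean RIN in 71. The part of RNA quality in these calls was not tested.

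Least often called were Ndufa3, in 4 comparisons, and Ndufa5, Ndufa11, Ndufb8, Ndufc2 and Uqcrfs1, in 5 each. Ndufa5 and Uqcrq were never called lower, where 4.55% of all gene tests were. The promoters printed above belong to 2 genes called mostly higher, Ndufs1 and Uqcrc2, and 2 called mostly lower, Uqcrh and Ndufa6. All 4 hold the ETS core, but they were chosen for holding a searched motif, so this is no separate result.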

How the data were processed

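Expected counts per Ensembl gene, not scaled, and FPKM values were used as the authors deposited them. Their genome build was Rnor_6.0 per the submitters' processing notes, and the aligner and quantifier are not given in the sources used here. Of non-zero count values 88% were whole. Counts were rounded, and libraries of 1 animal in 1 batch were summed. Each treated group was compared with its vehicle group with edgeR 4.0.16 under R 4.3.3, by its 2-sided quasi-likelihood F test with robust estimation, TMM scaling and the filterByExpr count filter, with sex as a covariate for bardoxolone and pyrazole, and p-values were adjusted over all genes tested. CPM values use TMM factors, marker sums the library totals. Standard errors were taken as the log2 fold change divided by the square root of F.

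The members and lists were chosen with earlier results of these data known. Named in each of the 8 comparisons are the 3 subunit genes with the largest change in its leading direction that passed with groups apart, the 2 largest in the other direction (there were none), and Ndufs1, Ndufv1, Sdha, Sdhb, Uqcrc1 and Uqcrfs1. Across comparisons the 3 called most often in each direction (4 higher, for a tie) and the least called are named. Other genes were named after their values were seen: Ndufs8, Uqcrq and Ndufa6 as extremes, and those of the counts that they make up. Alternatives were DESeq2 1.42.0, RLE scaling, no count filter, the authors' deposited expected counts per RefSeq gene, RIN as a covariate, and leaving out single animals. Libraries of RIN under 7, a troglitazone pair of libraries and libraries with skeletal muscle markers of at least 100 CPM were left out in alternatives chosen after seeing the data. The fitting script was tested on simulated data with known changes. Of 100 genes changed by 0.5 on the log2 scale it called 6 in the clofibrate design and 0 in the sitaxsentan design. Of 100 changed by 1 it called 60 and 28. Only these genes were changed in the simulation, whereas many more were called in the data. A gene that did not pass may still have changed. A second sequencing of the lapatinib animals was fitted but not counted among the 97, and almorexant libraries of an earlier batch were not tested. Promoters and RefSeq matches carry GRCr8 names and were not joined to other coordinates. One subunit gene counted in the totals is not reported here by name or drawn as a row of its own.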

Additional observations from a re-analysis of the deposited data

Results flagged for a closer look

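In 9 of 143 groups of values checked, 1 rat stood apart from the others of its group by Dixon's criterion, which flags about 1 group in 20 by chance. Treated rat 4 of Cmpd Z had 124.1 CPM of Ndufv1, where the other treated rats had 96.4 to 101. For azithromycin, treated rat 2 had 56.46 CPM of Ndufs7, treated rat 1 had 141.4 CPM of Uqcrc1 and vehicle rat 3 had 182.7 CPM of Uqcrfs1. Vehicle rat 2 of nitrofurantoin had 131.3 CPM of Ndufs1, against 92.3 to 97.3 in the other vehicle rats, and treated rat 4 of chlorpropamide had 159.9 CPM of Sdhb. Treated rat 2 of flutamide stood apart for 2 genes, with 34.92 CPM of Ndufa12 and 183.2 CPM of Ndufv1. Over all 48 genes, vehicle rat 1 of nefazodone had a median log2 ratio to the vehicle mean of -0.08668, where the other 3 vehicle rats had 0.024 to 0.046.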

How the results depend on the processing

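No paired analysis was possible because the labels carry no number that pairs a treated with a vehicle rat. RIN as a covariate moved 5 of the 8 counts by over 1.5 times: subunit genes lower fell to 9 after sudoxicam and 0 after sitaxsentan, and genes higher to 0 after nitrofurantoin, 14 after chlorpropamide and 0 after flutamide. Their medians were then -0.39 (main analysis -0.55), -0.052 (-0.33), 0.76 (0.80), 0.29 (0.30) and -0.038 (0.14). Over all comparisons it left 82 higher and 101 lower calls. For Cmpd Z, azithromycin and clofibrate it gave 18, 20 and 44. RLE scaling, DESeq2, no count filter, the RefSeq gene table and leaving out libraries of RIN under 7 kept the counts of the 8 comparisons and both totals within 1.5 times. Leaving out single animals gave 14 to 26 for Cmpd Z, 16 to 32 for sudoxicam, 15 to 22 for sitaxsentan, 19 to 23 for azithromycin, 34 to 45 for clofibrate, 8 to 37 for nitrofurantoin, 10 to 27 for chlorpropamide and 10 to 14 for flutamide. The cause was not tested.

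With RIN as a covariate the flutamide median and Uqcrc1 (-0.13), Ndufa12 (-0.20), Ndufs1 (-0.035), Ndufv1 (-0.033), Sdha (-0.080), Sdhb (-0.21) and Uqcrfs1 (-0.47) after flutamide changed sign. So did Ndufv1 (0.29) and Uqcrfs1 (-0.049) after sitaxsentan and Uqcrfs1 (-0.024) after sudoxicam. Single rats left out changed the sign of Uqcrfs1 after sudoxicam (-0.17 without treated rat 2, up to 0.15; also vehicle rat 4), Uqcrc1 after sitaxsentan (-0.012 without vehicle rat 4, up to 0.065), Uqcrfs1 after sitaxsentan (-0.034 without treated rat 1, up to 0.096) and Sdha after chlorpropamide (-0.017 without treated rat 4, up to 0.091). Ndufs1 after sitaxsentan was 0.0028 in the RefSeq table. The 5 higher calls after bardoxolone were 0 without sex in the model. Leaving out single animals was not run for carbamazepine, ticlopidine and ritonavir. All 48 subunit genes passed the count filter in each of the 8 comparisons, so depth kept none of them from being tested, and the number of rats limits the precision.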

Other observations

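Gene groups that serve the same organelle were called in another balance than the subunit genes. Over the 97 comparisons, assembly factors of complexes I to III were higher in 181 of 2411 tests (7.51%) and lower in 49 (2.03%), and mitochondrial ribosomal protein genes were higher in 526 of 6998 (7.52%) and lower in 113 (1.61%). TCA cycle genes were higher in 8.59% and lower in 4.38% of 1164 tests, and ATP synthase genes higher in 5.73% and lower in 2.71% of 1552. Nuclear complex IV genes were closest to the subunit genes, with 3.39% higher and 2.88% lower of 973. Mitochondrial stress genes, a list that holds Fgf21, Gdf15, Atf4 and Trib3, were higher in 12.3% and lower in 2.91% of 1443 tests. The differences between groups were not tested.

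Quinidine (300 mg per kg per day) gave the third highest median of the subunit genes, 0.45 on the log2 scale with 42 of 48 above 0, at 0 subunit genes and 2 of 12578 genes called higher by edgeR, and 0 subunit genes also at an unadjusted p under 0.05. Its mean RIN was 6.95 in treated and 8.08 in vehicle rats. The highest values of Ndufa2 (1.07), Uqcrq (1.00), Ndufs5 (0.93) and Uqcrh (0.93) over all comparisons came from this group. The part of RNA quality was not tested.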
